A study of Equus caballus with 8 samples.

Results

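The receptors through which the endometrium of the mare senses prostaglandins were followed here together with LNPEP, the peptidase also called oxytocinase. The genes were listed by name: the 7 prostanoid receptors PTGFR, PTGER1, PTGER2, PTGER3, PTGER4, PTGIR and PTGDR, and LNPEP. Of these 8 genes, 7 had a row among the 24942 Gene IDs of the count table, and PTGER1 (EP1) was not analysed here. Messenger RNA was sequenced in transcervical biopsies of whole endometrium from 4 healthy, normally cycling Bavarian Warmblood mares. Every animal was sampled in both states, pregnant at Day 12 and non-pregnant at Day 12 of the cycle, in random order, so that the 4 pregnant and 4 cyclic libraries pair by mare. Per the labels' protocols, every mare was treated with human chorionic gonadotropin to induce ovulation and was inseminated with semen of a single fertile stallion. How the control cycles were handled is not described separately, the order of the states is not given for each mare, and neither is the age of the animals. An embryonic vesicle was seen by ultrasound before the uterus was flushed, and the biopsy was taken after flushing.

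Prostaglandins are made from arachidonic acid and act on G protein-coupled receptors at the cell surface. The receptor of prostaglandin F2 alpha (FP, gene PTGFR) couples to Gq and raises calcium, and the prostaglandin E2 receptors EP2 and EP4 (PTGER2 and PTGER4) couple to Gs and raise cyclic AMP, as do the prostacyclin receptor IP (PTGIR) and the prostaglandin D2 receptor DP1 (PTGDR). EP3 (PTGER3) mainly couples to Gi, which lowers cyclic AMP. In the mare, uterine prostaglandin F2 alpha ends the life of the corpus luteum unless a conceptus is present, the release of prostaglandin is promoted by oxytocin, and the mobile equine conceptus itself releases prostaglandins that act on the uterus. LNPEP is a membrane-bound aminopeptidase that cleaves oxytocin and vasopressin.

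Libraries held 9.81 to 16.7 M counts. The pregnant library of mare 1 was the shallowest and the other 7 held at least 15.5 M. Levels are given in CPM, the reads of a gene relative to all reads of its library, scaled with TMM factors that correct for differences in library composition. The words rose, fell and changed are kept for genes where edgeR's quasi-likelihood test, with the mare as a block, gave an adjusted p (Benjamini-Hochberg, over all genes tested) below 0.05. The epithelial genes EPCAM, CDH1 and FOXA2 and the stromal genes DCN and PDGFRB were all detected well enough to be tested.

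The comparison of pregnancy with the cycle asked which of these receptors differ in the endometrium when a conceptus is present around the time of maternal recognition of pregnancy. PTGFR fell 2.76-fold in pregnancy and LNPEP fell 1.95-fold. PTGER4 rose 2.23-fold. PTGER3 was higher in each mare but missed the threshold, PTGER2 and PTGDR did not pass, and PTGIR was close to the detection limit. Of the 6 genes tested, 1 rose and 2 fell, with a median log2 fold change of 0.07. Over all 15342 genes tested, 16.7% changed, 8.53% upwards and 8.19% downwards, and the median log2 fold change was 0.0042. The levels are those of a bulk tissue, in which fewer cells of a type and less RNA per cell cannot be told apart.

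**Figure D1:**
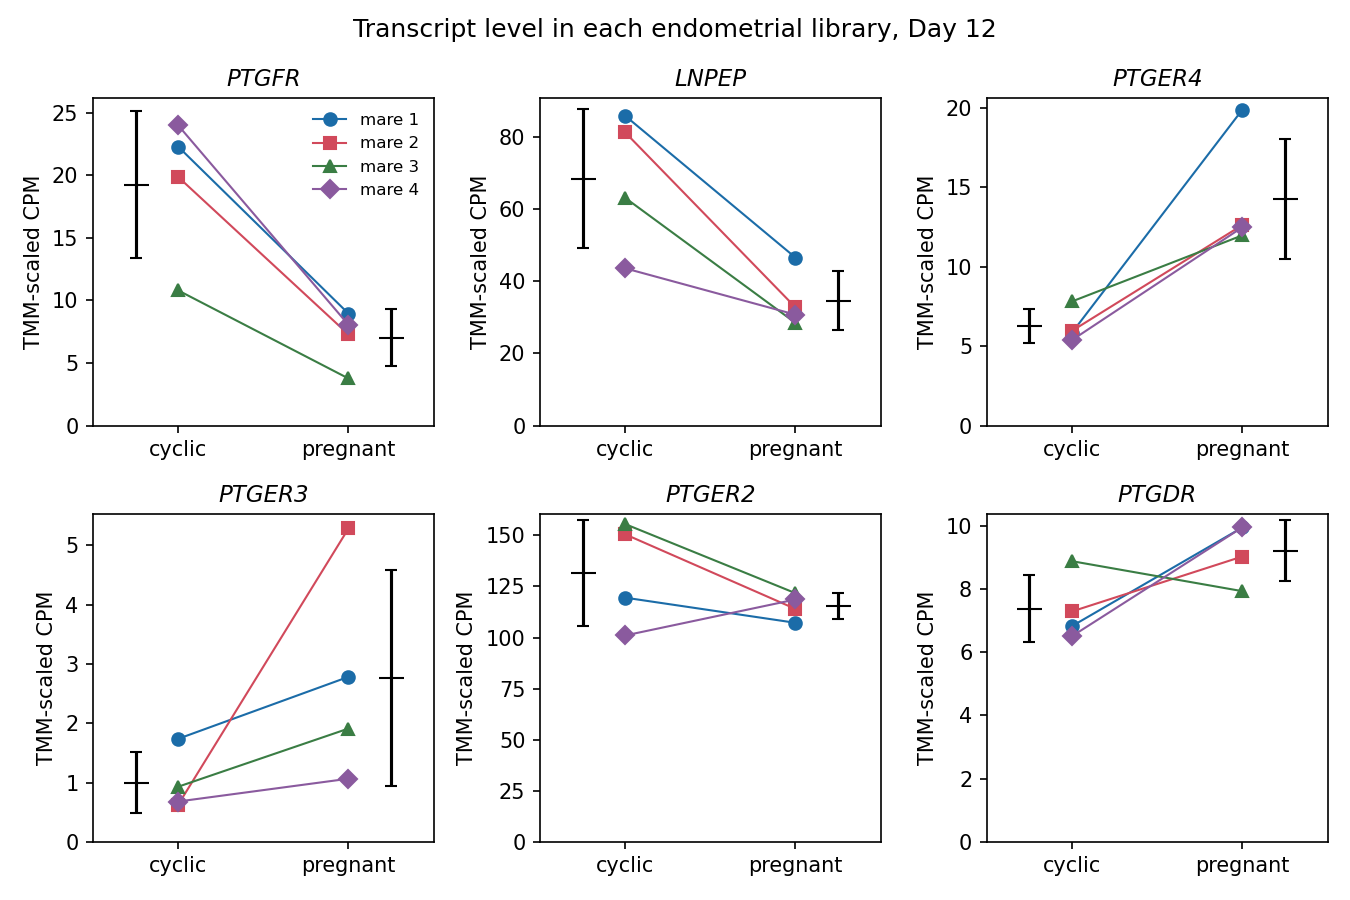
Each panel plots the TMM-scaled CPM of a gene in the cyclic and the pregnant library of each mare, joined by a line, with the mean and SD of each group (n = 4 mares) in black beside them. PTGFR and LNPEP go down in every mare, PTGER4 and PTGER3 go up in every mare, and PTGER2 and PTGDR cross, each on its own vertical scale.

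PTGFR (Gene ID 100009714), the FP receptor, had 22.3, 19.9, 10.8 and 24.0 CPM in the cyclic libraries of mares 1 to 4. In pregnancy the same mares had 8.95, 7.28, 3.77 and 8.05 CPM. Every pregnant library was below every cyclic one, and mare 3 had the lowest value in both states. The cyclic mean was 19.2 ± 5.87 CPM and the pregnant mean 7.01 ± 2.27 CPM (SD, n = 4). The fitted log2 fold change was -1.46 ± 0.10 (SE), with a 95% interval from -1.70 to -1.23 and an adjusted p of 1.37e-04 by edgeR's quasi-likelihood test. The ratio of pregnant to cyclic CPM lay between 0.336 in mare 4 and 0.402 in mare 1, so the mares differed little in the size of the fall although their levels differed. Of all 15342 genes tested, PTGFR had the 12th smallest p-value. The gene itself rests on 67 to 387 reads per library.

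Among the receptors of prostaglandin E2, PTGER4 (EP4, 100053208) moved the other way. It had 5.86, 5.97, 7.82 and 5.39 CPM in the cyclic libraries of mares 1 to 4. The pregnant libraries had 19.9, 12.6, 12.0 and 12.5 CPM. The groups did not overlap, and the pregnant library of mare 1, the shallowest, was the highest. Means were 6.26 ± 1.07 and 14.3 ± 3.77 CPM (SD, n = 4), and the log2 fold change was 1.16 ± 0.17 (SE; 95% interval 0.77 to 1.55; adjusted p = 0.00294 by edgeR). Without mare 1 it was 0.96 with an adjusted p of 0.0149. Among the 6 genes tested, PTGFR and PTGER4 were the ones whose groups did not overlap, which was true of 10.7% of all genes tested.

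PTGER3 (EP3, 100053557) was a low transcript, with 10 to 27 reads in the cyclic libraries and 18 to 82 in the pregnant ones. Its cyclic values were 1.74, 0.628, 0.931 and 0.682 CPM in mares 1 to 4. Its pregnant values were 2.78, 5.29, 1.91 and 1.07 CPM. The value was higher in pregnancy in 4 of 4 mares, by 8.41-fold in mare 2 and by 1.56-fold to 2.05-fold in the others, and the groups overlapped. The fitted log2 fold change was 1.38 ± 0.41 (SE; 95% interval 0.46 to 2.31; adjusted p = 0.0511 by edgeR), on the edge of the threshold. Mare 2 carried much of its size: without that mare it was 0.78 (adjusted p = 0.124). Of 13 alternative settings in which it could be tested, PTGER3 passed in 5 and missed in 8 (adjusted p from 1.03e-04 to 0.171).

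PTGER2 (EP2, 100067279) was covered by 1078 to 2505 reads per library, so counting error is small. Its cyclic values were 119.5, 150.5, 155.5 and 101 CPM in mares 1 to 4. Its pregnant values were 107, 114, 122 and 119 CPM. The groups overlapped, the value was lower in pregnancy in 3 of 4 mares, and mare 4 went up. With a cyclic mean of 132 ± 25.9 and a pregnant mean of 115 ± 6.31 CPM (SD, n = 4), the spread between mares was narrower in pregnancy, a difference that was not tested. The log2 fold change was -0.17 ± 0.10 (SE; adjusted p = 0.305 by edgeR), and its 95% interval runs from a fold of 0.754 to a fold of 1.05. A fall of PTGER2 as large as that of PTGFR lies outside this interval. Without mare 4 the log2 fold change was -0.30 and passed (adjusted p = 0.0428).

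The remaining receptors did not pass either. PTGDR (DP1, 100067254) had 6.83, 7.29, 8.88 and 6.51 CPM in the cyclic libraries of mares 1 to 4. Pregnant libraries of the same mares had 9.94, 9.02, 7.93 and 9.95 CPM. PTGDR was higher in mares 1, 2 and 4 and lower in mare 3, and the groups overlapped (log2 fold change 0.32 ± 0.15 SE; fold interval 0.985 to 1.58; adjusted p = 0.189 by edgeR). PTGIR (IP, 100071157) had 1 to 7 reads per library and was not tested, since no library reached the minimum of 0.61 CPM. Together the pregnant libraries held 17 PTGIR reads and the cyclic ones 14, a rate ratio of 1.28 with an exact 95% interval of 0.596 to 2.81 that covers counting error only. A difference in this prostacyclin receptor was not detectable at this depth.

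**Figure D2:**
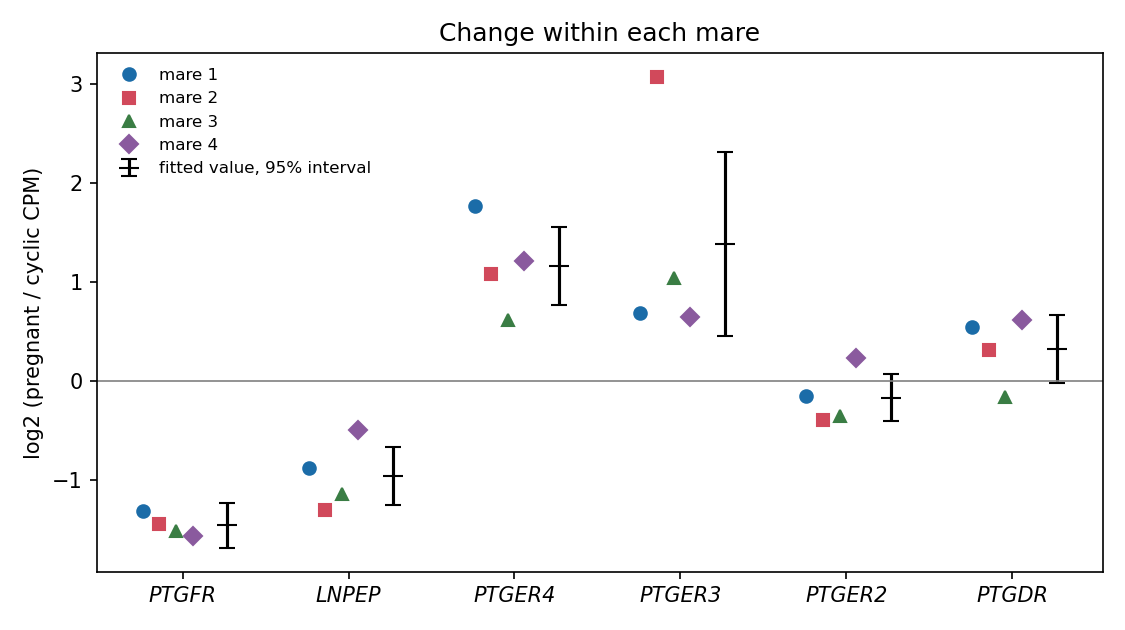
Points give the log2 ratio of pregnant to cyclic CPM in each mare and black bars the fitted log2 fold change with its 95% interval, for the 6 genes tested. The 4 mares lie close together for PTGFR, between -1.32 and -1.57, and far apart for PTGER3, where mare 2 reaches 3.07.

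The balance between FP and the other receptors was read from ratios within each library. These ratios of reads are not corrected for transcript length, so that only their change between states is compared. For each PTGER4 read there were 3.80, 3.33, 1.38 and 4.45 PTGFR reads in the cyclic libraries of mares 1 to 4. In the pregnant libraries there were 0.450, 0.577, 0.315 and 0.645. For each PTGDR read there were 3.26, 2.72, 1.22 and 3.69 PTGFR reads in the cyclic libraries and 0.900, 0.807, 0.475 and 0.810 in the pregnant ones. Both ratios were lower in the pregnant library of every mare. On the scale of log2(CPM + 1), the ratio of PTGFR to PTGER4 was lower in pregnancy by 2.38 ± 0.410 (SD, n = 4 mares). That to PTGER3 was lower by 2.16 ± 0.753, that to PTGDR by 1.62 ± 0.351 and that to PTGER2 by 1.16 ± 0.359. Each of the 4 ratios was lower in pregnancy in 4 of 4 mares, and in the two-sided exact permutation test 2 of the 16 sign patterns were as extreme, before and after adjustment over the 4 ratios, the smallest p that 4 mares allow. All 4 ratios share PTGFR and are not independent.

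**Figure D3:**
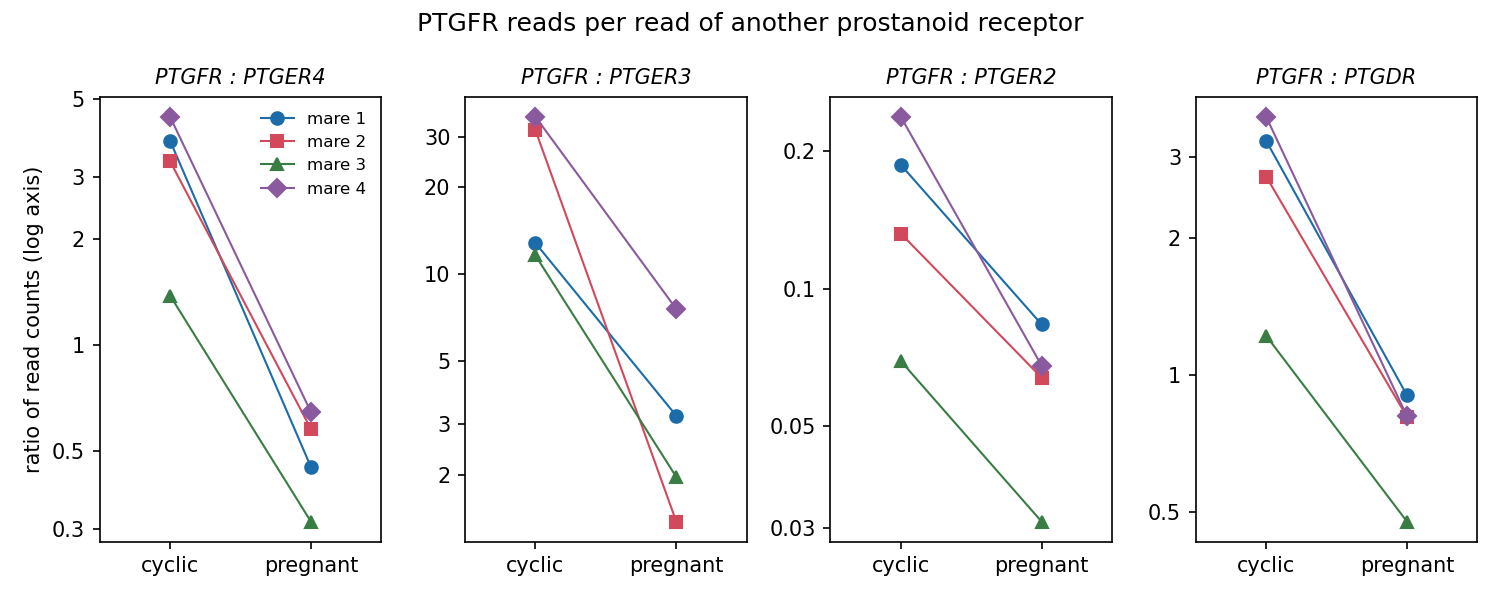
Panels show the number of PTGFR reads per read of another prostanoid receptor (log axis) in the cyclic and the pregnant library of each mare. All 16 lines go down, and for PTGER4 and PTGDR each of the 4 lines passes from above 1 to below 1. Reads are not corrected for transcript length, so a ratio of 1 does not mark equal levels.

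LNPEP (100073222), the oxytocinase, had 85.8, 81.2, 63.1 and 43.6 CPM in the cyclic libraries of mares 1 to 4. Its pregnant values were 46.5, 32.8, 28.5 and 30.7 CPM. LNPEP was lower in pregnancy in 4 of 4 mares, with the smallest fall in mare 4, whose cyclic value was the lowest. The groups overlapped, because the pregnant value of mare 1 exceeded the cyclic value of mare 4. Means were 68.4 ± 19.2 and 34.6 ± 8.14 CPM (SD, n = 4). The log2 fold change was -0.96 ± 0.13 (SE; 95% interval -1.25 to -0.67; adjusted p = 0.00237 by edgeR). Without the mare as a block the same test gave -0.99 with an adjusted p of 0.0576, so the call rests on the comparison within mares.

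LNPEP belongs to the M1 family of zinc aminopeptidases, whose other members moved in both directions. Of 10 relatives tested, 4 rose and 2 fell, where 16.7% of all genes tested changed. The median log2 fold change of the relatives was 0.17. AOPEP, aminopeptidase O, rose from 14.4 ± 1.68 (SD) to 22.9 CPM (adjusted p = 0.00223 by edgeR). ANPEP, the brush border aminopeptidase N, rose 1.39-fold and LTA4H, which makes leukotriene B4, 1.33-fold. ERAP2, which trims peptides for antigen presentation, fell from 16.1 ± 1.87 to 10.9 ± 1.00 CPM (adjusted p = 0.00761 by edgeR). The calls of ANPEP and LTA4H were lost without the mare block (adjusted p 0.426 and 0.216). LNPEP is also known as a cargo of the insulin-responsive vesicles that carry the glucose transporter SLC2A4. Of 11 genes of that vesicle pathway, 2 rose and 1 fell. SLC2A4 rose from 1.82 ± 0.195 to 3.90 ± 0.273 CPM (adjusted p = 0.00548 by edgeR). LRP1, a large endocytic receptor, rose 1.32-fold, and the vesicle GTPase RAB10 had a log2 fold change of -0.24 ± 0.06. The calls of LRP1 and RAB10 were each lost without any of 3 mares (adjusted p up to 0.112 for both; mares 1, 2 or 3 for LRP1, and 1, 3 or 4 for RAB10).

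Few genes of the oxytocin and vasopressin axis, which holds substrates of LNPEP and their receptors, could be tested. The oxytocin gene OXT and its receptor OXTR had no row under their Gene IDs and were not analysed here. Of the other 7 genes of this axis, 2 were tested and 0 passed edgeR's test, nor did any pass with DESeq2 or limma-voom, while 1 had an unadjusted p below 0.05. AVPR1A, a vasopressin receptor, had a cyclic level of 1.19 ± 0.491 and a pregnant level of 1.92 ± 0.333 CPM (adjusted p = 0.117 by edgeR), higher in 4 of 4 mares. PAM, the enzyme that amidates oxytocin and other peptides, had 140 ± 6.39 and 154 ± 22.7 CPM (adjusted p = 0.378 by edgeR). AVP, AVPR1B, AVPR2, PCSK1 and PCSK2 had at most 2 reads in any library.

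The same model also tested whether levels differed from mare to mare. PTGFR differed between mares (adjusted p = 0.00427 by edgeR), beside 15.9% of all genes tested, and this rested on mare 3, without which the adjusted p was 0.417. LNPEP missed the threshold (adjusted p = 0.0599 by edgeR). PTGER2, PTGER3, PTGER4 and PTGDR had adjusted p from 0.213 to 0.993 by edgeR.

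Of 2 other prostanoid receptor genes and partners, 0 passed by edgeR, DESeq2 or limma-voom, and 0 had an unadjusted p below 0.05. PTGDR2, the second prostaglandin D2 receptor, had a cyclic level of 0.736 ± 0.296 and a pregnant level of 0.598 ± 0.212 CPM (adjusted p = 0.651 by edgeR). PTGFRN, a membrane protein that inhibits binding to the FP receptor, had 61.5 ± 9.83 and 60.8 ± 6.83 CPM (adjusted p = 0.957 by edgeR). The thromboxane receptor TBXA2R was not analysed here.

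Genes downstream of the receptors changed in part, and not in a single direction, where 16.7% of all genes tested changed. Of 9 G protein alpha subunits, 2 rose and 1 fell. GNA14, of the Gq family, rose from 4.52 ± 1.06 to 7.98 ± 1.96 CPM (adjusted p = 0.0149 by edgeR), GNAI1, of the Gi family, rose 1.32-fold, and GNAQ, the main Gq subunit, had a log2 fold change of -0.22 ± 0.06. All 3 calls were lost when a mare was left out, GNA14 without mare 1 or 2, GNAI1 without 1, 2 or 3 and GNAQ without any of the 4 (adjusted p up to 0.0548, 0.101 and 0.133).

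Of 15 genes of Gq and calcium signalling, 2 rose and 3 fell. The calcium release channel ITPR1 rose from 48.7 ± 15.4 to 115 ± 37.8 CPM (adjusted p = 5.48e-04 by edgeR). Its relative ITPR3 fell from 529 ± 66.2 to 385 ± 78.3 CPM (adjusted p = 0.00512 by edgeR). PLCB4, a phospholipase C that Gq activates, had a log2 fold change of -0.37 ± 0.07. Without the mare block the adjusted p of these 3 genes ran from 0.0547 for ITPR1 to 0.294 for PLCB4.

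Of 22 genes of cyclic AMP signalling tested, 2 rose and 5 fell, with a median log2 fold change of 0.01. The excess of falls depended on the settings: with library totals in place of TMM it was 2 and 1, under the stricter filter 3 and 3, without mare 1 it was 1 and 0, without mare 3 it was 1 and 1, and without mare 4 it was 2 and 2. ADCY4, an adenylyl cyclase, rose from 3.66 ± 0.295 to 8.51 ± 1.90 CPM (adjusted p = 0.00212 by edgeR), a call kept in each of 14 alternatives. ADCY3 rose 1.31-fold, while the cyclase ADCY6 had a log2 fold change of -0.47 ± 0.11 and PDE3A, which degrades cyclic AMP, of -0.39 ± 0.08. ADCY3 was lost without mare 1 or 3, ADCY6 without 1, 2 or 3 and PDE3A without 1 (adjusted p up to 0.105, 0.0750 and 0.0661).

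Genes that end receptor signalling rose in 5 of 10 cases and fell in 0, beside rises in 8.53% of all genes tested. The median log2 fold change of the list was 0.38, and DESeq2 gave the same counts. At an unadjusted p below 0.05 it was 6 higher and 0 lower. GRK5, a kinase that phosphorylates active receptors, rose from 37.4 ± 4.86 to 57.4 ± 4.40 CPM (adjusted p = 0.00237 by edgeR). RGS3, which speeds the turning off of G proteins, rose 1.34-fold, and RGS2, a regulator of Gq, had 9.89 ± 2.83 and 18.3 ± 2.00 CPM. The arrestin ARRB1 had a fold of 1.26. The calls of RGS2 and ARRB1 were lost without mare 1 (and RGS2 also without 2, ARRB1 also without 3; adjusted p up to 0.0702 and 0.0899), and the list had 2 rises without mare 1 and 3 without mare 2. Of 17 genes of prostanoid synthesis, breakdown and transport, 5 rose and 0 fell, also by DESeq2 (7 and 1 at an unadjusted p below 0.05), and 3 rose without mare 2. These included SLCO2A1, which takes up prostaglandins, PTGR1, which reduces their breakdown products, PTGIS, the prostacyclin synthase, and PLA2G4A, which releases arachidonic acid (7.94 ± 1.64 and 13.3 ± 1.02 CPM, with an adjusted p of 0.0547 without mare 2). PTGR1 rose from 19.6 ± 4.98 to 47.8 ± 15.9 CPM (adjusted p = 0.00632 by edgeR).

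Over all genes tested, 8.53% rose and 8.19% fell. In these signalling, synthesis and peptidase lists together, 22 of 98 genes rose and 12 fell, a total of 34. That total was 17 without mare 1 and 11 without the mare block. The lists were drawn up with earlier results of these data known, and their counts are a description.

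**Figure D4:**
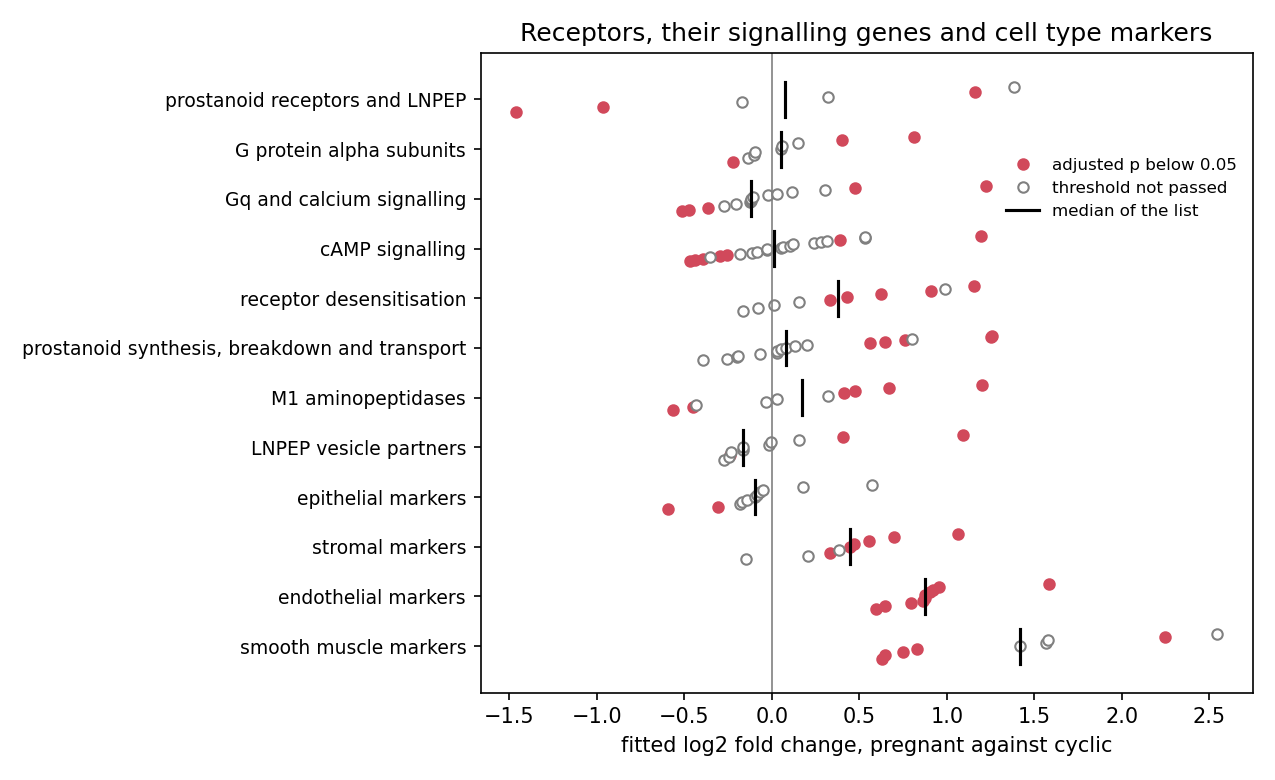
Each point is the fitted log2 fold change (pregnant against cyclic) of a tested gene, by list, filled where edgeR's adjusted p is below 0.05, with the median of each list as a black bar. PTGFR at -1.46 is the lowest point shown, the desensitisation list has 5 filled points to the right of 0 and none to the left, and all 10 endothelial markers are filled and to the right.

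Markers of the cell types in a biopsy moved with the state too. All 10 endothelial markers tested rose, beside rises in 8.53% of all genes tested. The summed level of these markers was 429 to 595 CPM in cyclic and 773 to 1278 CPM in pregnant libraries. CLDN5 rose 3.00-fold, CDH5 1.83-fold, PECAM1 1.84-fold and EGFL7 1.82-fold. Smooth muscle markers rose in 5 of 9 cases and fell in 0 (8 by DESeq2 and without mare 4, 9 in the likelihood ratio test), with summed levels of 206 to 384 CPM and 388 to 620 CPM, and CNN1 rose from 2.26 ± 1.58 to 10.2 ± 3.11 CPM, LMOD1 1.78-fold, SYNM 1.56-fold and RGS5 1.55-fold. Of 9 stromal markers 6 rose and 0 fell, with overlapping sums of 2097 to 3108 CPM and 2722 to 3175 CPM, led by DPT (2.09-fold), with VIM (1.47-fold), PDGFRB (1.62-fold) and DCN (1.36-fold) among them. COL1A1, the most abundant stromal marker, did not pass (1484 ± 493 and 1283 ± 71.8 CPM, adjusted p = 0.658 by edgeR) and was lower in 2 of 4 mares. LUM and PDGFRA did not pass either, and both were higher in every mare. Among 11 epithelial markers 0 rose and 2 fell, KRT7 and KRT18, beside falls in 8.19% of all genes tested. Their sums were 2123 to 2572 CPM (cyclic) and 1996 to 2189 CPM (pregnant). Of the 9 epithelial markers that did not pass, CLDN4 and CDH1 had log2 fold changes above 0 (0.57 and 0.18), each higher in 3 of 4 mares. The others were below 0. The call of KRT18 was lost without mare 1, 2 or 4 (adjusted p up to 0.129). Of 11 immune cell markers tested 3 rose and 0 fell (123 to 202 CPM and 160 to 210 CPM), namely CD14 (1.47-fold), CD79A (2.90-fold, on 4 to 35 reads per library) and CD3D (1.52-fold; adjusted p up to 0.0600 without mare 1, 2 or 4). Of the 8 immune markers that did not pass, NKG7 and CD68 had log2 fold changes below 0 (-0.26 and -0.11). CSF1R, the most abundant, was at 0.007, and the others were above 0. Trophoblast markers, included because a conceptus had been in the uterus, summed to 12.6 to 17.4 CPM in cyclic and 22.8 to 29.3 CPM in pregnant libraries. Of the 5 tested 2 rose, TEAD4 (8.77 ± 1.42 and 15.9 ± 5.17 CPM) and TFAP2C (1.37 ± 0.303 and 2.79 ± 0.356 CPM). TEAD4 was the largest part of the sum in both states. GCM1 (3 to 46 reads per library), ELF5 (25 to 126) and GATA3 (13 to 23) did not pass. HSD3B1 (0 to 11 reads) was not tested, and CDX2 and HAND1 had 0 reads in every library. The call of TFAP2C was lost without mare 1 or 3 (adjusted p up to 0.0906). By DESeq2, and at an unadjusted p below 0.05, no endothelial, stromal, smooth muscle, immune or trophoblast marker was lower and no epithelial marker higher. The likelihood ratio test, in contrast, called 1 epithelial marker higher and 1 lower. The part of these shifts in the values of PTGFR, PTGER4 and LNPEP was not tested.

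Genes whose log2(CPM + 1) most resembled that of each gene over the 8 libraries were sought among 10756 others with a symbol and a mean of at least 5 CPM (10757 for PTGER3). These correlations describe 8 libraries that share mares, states and scaling, and the highest of so many are high by selection. Nearest to PTGFR were DPYSL3 (r = 0.993), TACC1 (0.989) and the Slit receptor ROBO1 (0.984). Nearest to LNPEP were GTF2A1 (0.990), RRAGD (0.989) and RAB22A (0.988), and to PTGER4 HS3ST1 (0.990), WDR45 (0.979) and IGFBP7 (0.975). PTGER3 was most like ST6GALNAC4, CCT7 and NFE2L2 (0.960 to 0.972), PTGER2 most like FBXL16, DMAC2 and MRI1 (0.951 to 0.971), and PTGDR most like SPHK2, DDX6 and THBD (0.954 to 0.970). No gene of the list was among the 3 nearest of another, but PTGER3 and PTGIR, below a mean of 5 CPM, could not have been. With 3 places among 10756 genes, this does not show whether the genes of the list vary together.

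Gene order was taken from RefSeq's table of the thoroughbred assembly TB-T2T, without coordinates, since no source used here gives the build behind the counts. The neighbours were looked up after the values were seen. PTGER2 and PTGDR lie next to each other there, and neither passed the test. On the far side of PTGDR, NID2, a basement membrane protein, had a log2 fold change of 0.30 ± 0.09 (adjusted p = 0.0398 by edgeR). Beside PTGFR, GIPC2 had -0.52 ± 0.12 (adjusted p = 0.0170 by edgeR), while IFI44L on the other side had 0.06 ± 0.17 (adjusted p = 0.858 by edgeR). NEGR1, 2 places from PTGER3, had -0.62 ± 0.15 (adjusted p = 0.0212 by edgeR), against the direction of PTGER3. ZRANB2 and CTH, directly beside PTGER3, did not pass, nor did any tested gene within 2 places of PTGER4. LNPEP lies beside ERAP1 and ERAP2, peptidases of its own family. LNPEP and ERAP1 overlap in that table, and the library kit does not mark the strand, so reads from the overlap may have been assigned to either gene. ERAP1 had cyclic and pregnant levels of 64.6 ± 10.4 and 66.3 ± 14.1 CPM (log2 fold change 0.03 ± 0.07; adjusted p = 0.836 by edgeR), beside the falls of LNPEP and ERAP2. PTGER2 and PTGER3 overlap unnamed loci of that assembly whose Gene IDs are not in the count table. RefSeq lists 9 transcripts for PTGFR, 8 for PTGER3, 11 for PTGDR and 18 for LNPEP, against 1 each for PTGER2, PTGER4 and PTGIR. Counts per gene sum over such isoforms.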

How the data were processed

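Endometrial messenger RNA of 4 mares was sequenced in 8 libraries. The authors deposited raw read counts per gene, for 24942 NCBI Gene IDs, and a second table of scaled signal, covering 14037 genes. Per the submitters' processing notes, Trimmomatic 0.32.2 and HISAT2 2.0.3 were used. Genome build, annotation and counter were not given in the sources used here. Tested on the values, the deposited signal table equals TMM-scaled CPM (100% of values within a relative tolerance of 1e-06), and it served for 1 alternative only. Symbols came from RefSeq's gene table of the TB-T2T assembly, which matched 21420 IDs (85.9%).

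Tests ran in edgeR 4.0.16 under R 4.3.3: filterByExpr (minimum count 10, 15342 genes kept), TMM, and the robust quasi-likelihood F-test with a block for the mare, because the series' design text has both samples taken from each animal. Same-mare libraries deviated together (r = 0.536, 0.377, 0.483 and 0.469 for mares 1 to 4; the highest r between different mares was -0.0152). SE is the log2 fold change over the square root of F. Ratios used a pseudocount of 1 CPM. A count of 0 allows 3 counts, or 0.18 to 0.306 CPM. Libraries of the same group all differed beyond sampling noise (chi-square per degree of freedom at least 24.6).

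The members and lists were chosen with earlier results of these data known. Named were all members, up to 4 called genes of each list with the smallest p (or the 2 most abundant where none was called), OXT and OXTR, and the 3 genes most alike each member. Of the genes so picked, 1 is not reported here. On simulated counts for 15342 genes, 200 of them changed, the test of pregnancy against the cycle recovered 55.2% of 1.5-fold, 76.1% of 2-fold and 98.5% of 4-fold changes, with 4.97% of calls false. These counts were drawn at the trended dispersion, without further spread between genes, and far fewer genes changed than were called in the data. The rates may therefore not hold for the real counts. Alternatives included DESeq2 1.42.0, limma 3.58.1, other scalings and filters, and leaving out each mare.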

Additional observations from a re-analysis of the deposited data

Results flagged for a closer look

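In 5 of 112 groups of 4 libraries, a library stood far from the other 3 by Dixon's criterion (the gap to the nearest over the range), where chance alone gives about 1 in 20. PTGER4 had 19.9 CPM in the pregnant library of mare 1, against 12.0 to 12.6 CPM in the other pregnant libraries. The same library was high in GNAQ (80.0 CPM against 53.5 to 57.1), in PTGIS (76.7 CPM against 61.8 to 62.5) and in RGS5 (93.9 CPM against 84.2 to 84.7). ADCY4 had 4.10 CPM in the cyclic library of mare 3, against 3.47 to 3.54 in the other cyclic libraries.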

How the results depend on the processing

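The falls of PTGFR (log2 fold change -1.51 to -1.33) and the rise of PTGER4 (0.96 to 1.35) passed in each of 14 alternatives. LNPEP fell in 13 and missed without the replicate block (-0.99, adjusted p = 0.0576). Without the replicate block, 389 genes passed in place of 2565 (268 higher and 121 lower; 385 of them among the 2565), 11 pathway genes in place of 34, and 2 of the genes of the list in place of 3. With library totals in place of TMM, 1416 genes were higher and 864 lower, in place of 1309 and 1256. PTGER3 passed with library totals (1.42), without the filter on low counts (1.37), with DESeq2 (1.33), in the likelihood ratio test with trended dispersion (1.38) and after thinning to the smallest library (1.65). Its log2 fold change without a mare ran from 0.78 to 1.66, and it could not be tested under the stricter filter. Leaving out each mare gave 1266 to 2057 called genes and 17 to 29 pathway genes, both lowest without mare 1. It gave -0.30 to -0.10 for PTGER2, lowest without mare 4, and an adjusted p for differences between mares of 0.00428 to 0.417 for PTGFR and 0.0256 to 0.282 for LNPEP, whose value after thinning was 0.0372. The value of PTGFRN, near 0, changed sign with library totals (0.026), under the stricter filter (0.0022) and in the runs without a mare (-0.10 to 0.061). Of 45 called genes named from the lists, 19 kept their call in every alternative in which they were tested, 24 lost it without the block and 14 without at least 1 mare. The ratios of PTGFR to other receptors moved by less than 1 SD with a pseudocount of 0.5 or 2 CPM or without a mare. Depth limits PTGIR, which had 1 to 7 reads per library.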
